A study of Mus musculus with 12 samples.

Results

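The change that follows loss of FADD was compared, gene by gene, with the change that follows loss of caspase-8 in mouse embryonic fibroblasts. For each gene, the log2 change from Fadd restored to Fadd knockout cells was taken, and the log2 change from Casp8 restored to Casp8 knockout cells was subtracted from it. A negative difference therefore means that expression went lower, relative to restored cells, after loss of FADD than after loss of caspase-8. All 12 of the 12 RNA sequencing libraries entered this comparison, and 16396 of the 55573 genes in the tables had enough counts to be tested.

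Every culture, knockout or restored, was deficient in Mlkl and had been immortalised by infection with SV40 large T antigen. The Fadd knockout group (Fadd -/-, Mlkl -/-) carried an empty vector, and the Fadd restored group carried FADD in the same background. The Casp8 knockout group (Casp8 -/-, Mlkl -/-) also carried an empty vector, and the Casp8 restored group carried caspase-8. The cells were untreated and were harvested 24 h after plating, with 3 independent cultures per group. Unless a block by replicate number is named, p-values measure the spread between the cultures of a group. They do not pair the same-numbered knockout and restored cultures of a line, although these deviated together over genes, only weakly in the Casp8 line. Here the Fadd line means the cells deficient in Fadd with either vector, and the Casp8 line those deficient in Casp8 with either vector. The labels name no embryo, clone or passage, so an effect of the restored gene and any other difference between the separately transduced populations cannot be told apart.

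FADD is an adaptor that joins death receptors such as FAS to caspase-8, the protease that starts receptor-mediated apoptosis. The same complex, with cFLIP, holds necroptosis in check by cleaving RIPK1 and RIPK3, the kinases that otherwise activate MLKL, which breaks the plasma membrane. ZBP1 is an interferon-induced sensor of nucleic acids that can also engage RIPK3. Since both proteins act in 1 complex, the difference between the lines shows where the 2 losses were followed by unequal changes in expression.

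Depth ranged from 33918359 to 59388559 expected counts per library. The first principal component held 52.3% of the variance and separated the lines, with Fadd line libraries from -114 to -38.3 and Casp8 line libraries from 22.3 to 103. The replicate 1 libraries of the Casp8 line stood apart from the rest of that line, at 22.3 and 36.3 against 81.9 to 103. Replicate 1 of the Fadd knockout had the lowest share of counts in protein-coding genes, 81.38% against 85.02% to 88.85% in the other libraries.

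The targeted genes were read first. Fadd (ENSMUSG00000031077.7, chr7:144577318-144582463 on mm10) stood at 0.176, 0.0364 and 0.0876 CPM in the Fadd knockout, 26.1, 19.1 and 25.7 in the Fadd restored, 8.62, 11.3 and 11.2 in the Casp8 knockout and 8.65, 10.6 and 9.71 in the Casp8 restored libraries, where CPM is the depth-normalised count of edgeR, scaled to the TMM-adjusted library size. All 3 Fadd knockout libraries lay below every other library, and restored cells held more Fadd RNA than either group of the Casp8 line. The difference for Fadd was -7.94 ± 0.52 on the log2 scale (SE, adjusted p = 4.83e-05, edgeR quasi-likelihood test). Casp8 (ENSMUSG00000026029.14, chr1:58795374-58847503) stood at 43.7, 46.2 and 39.3 CPM in the Fadd knockout, 46.8, 54.5 and 45.0 in the Fadd restored, 12.4, 11.3 and 10.4 in the Casp8 knockout and 67.6, 172 and 182 in the Casp8 restored libraries. The Casp8 knockout kept reads over the gene, and the 3 restored libraries overlapped no other group, although replicate 1 had less Casp8 than the other restored libraries. The difference for Casp8 was 3.45 ± 0.43 (adjusted p = 0.00283), and it came from the Casp8 line, where the change was -3.63 ± 0.32 against -0.18 ± 0.29 in the Fadd line.

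In all, 138 of the 16396 genes tested (0.842%) passed an adjusted p under 0.05 in the difference, 129 of them lower (0.787%) and 9 higher (0.0549%). Of the 138 genes, 131 are protein coding, and 96 differed by 32-fold or more in the fit. Unadjusted, 1213 genes had a p under 0.05, with 361 higher and 852 lower. The same fit called 250 genes in the Fadd line (1.52%), 47 of them higher (0.287%) and 203 lower (1.24%), and 1 gene, Casp8 itself, in the Casp8 line (0.0061%). Of the 138 genes, 118 were also called in the Fadd line, 1 in the Casp8 line and 19 in neither. The count depended on single libraries: it was 90 without replicate 3 of the Casp8 restored group and 241 without replicate 1 of the Casp8 knockout. Without both replicate 1 libraries of the Casp8 line it was 391 (58 higher, 333 lower), and with the replicate number as a block within each line it was 239 (29 higher, 210 lower), of which 121 were among the 138.

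The called genes fell into a few shapes. Among the 129 lower genes, 62 changed by at least 1 log2 unit in the Fadd line alone, and 62 fell in the Fadd line while rising by at least 1 log2 unit in the Casp8 line. Of the others, 3 stayed under that size in both lines, and Spint1 reached it in the Casp8 line alone and Gas6 in the same direction in both. Among the 9 higher genes, 8 changed in the Fadd line alone and Casp8 in the Casp8 line alone. For 96 of the 129 lower genes, the group farthest from the mean of the others was the Fadd knockout, on the low side. Of all genes tested, 16% had that shape. The Fadd restored group was farthest on the high side for 18 (10.4% of all genes) and the Casp8 knockout for 10 (11.8%). The Casp8 restored group was farthest on the low side for 5 (12.6%). These classes come from the same fit as the calls and describe them, with no test of their own. Each same-numbered knockout and restored pair was also taken as 1 change. The 3 changes of one line lay entirely above or below those of the other in 138 of 138 called genes. Over all genes tested the share was 21.3%. The calls rest on the same 12 libraries, so this separation largely restates them and is no separate support.

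**Figure D1:**
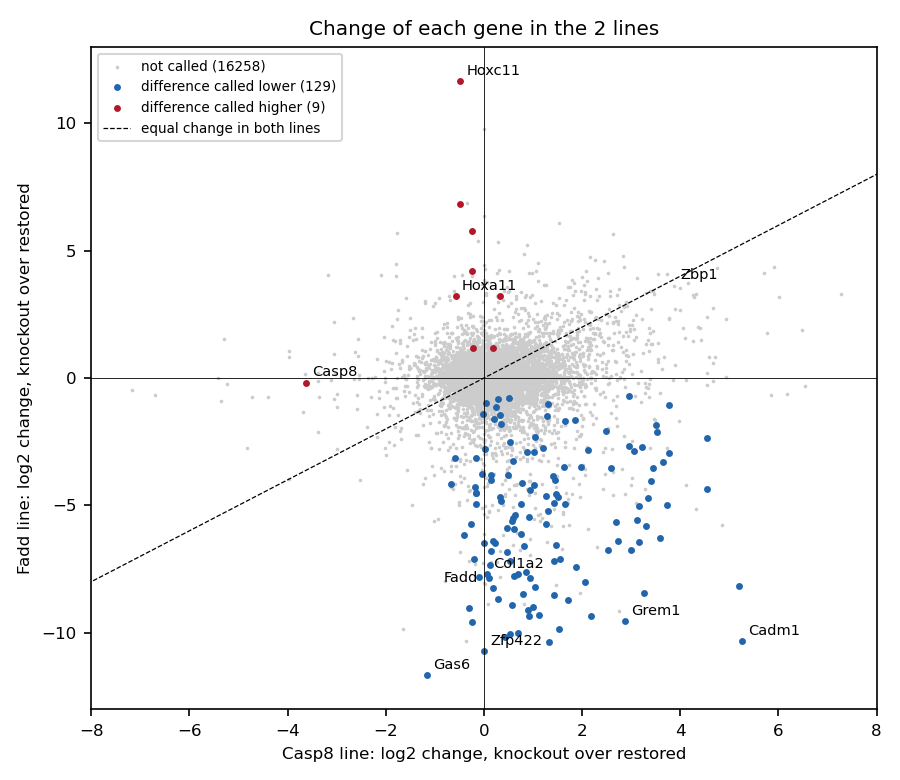
Each point is 1 of the 16396 genes tested, with its log2 change (knockout over restored) in the Casp8 line on the horizontal axis and in the Fadd line on the vertical axis. The 129 genes called lower lie below the dashed line of equal change, some of them close to it. The 9 called higher lie above it, while Zbp1 sits close to that line. Positions of genes with 0 counts in a group, such as Gas6 and Hoxc11, depend on the prior count of the fit.

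**Figure D2:**
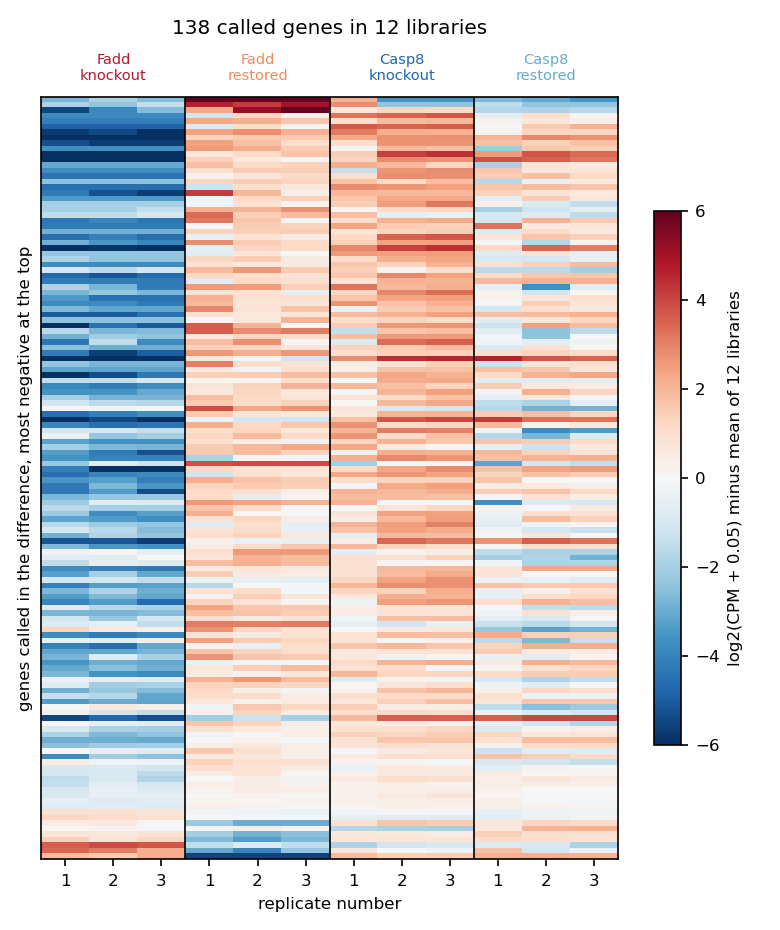
Rows are the 138 called genes and columns the 12 libraries, coloured by log2(CPM + 0.05) minus the mean over the 12 libraries. The 3 Fadd knockout libraries are low for most rows, and the few rows at the bottom that are low in the Fadd restored libraries are the genes called higher.

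The plainest shape was a gene that was nearly silent in the Fadd knockout and expressed in the other 3 groups. A mean under 0.5 CPM in the Fadd knockout and at least 1 CPM in every other group was found for 109 tested genes. Of these, 51 were called lower, where 0.787% of all genes tested were. The pattern uses the same group means as the test, so this share largely follows from the definition and adds no support. In bulk libraries such as these, fewer expressing cells and less RNA per cell cannot be told apart. Zfp422, which encodes a zinc finger protein (ENSMUSG00000059878.12, chr6:116624016-116628999), stood at 0.0176, 0 and 0 CPM in the Fadd knockout, 13.5, 16.1 and 15.4 in the Fadd restored, 25.98, 34.9 and 36.2 in the Casp8 knockout and 21.8, 39.9 and 34.8 in the Casp8 restored libraries. With 1 count in the 3 Fadd knockout libraries together, the ratio of restored to knockout was 2360 (95% counting interval 423 to 93200), and the Casp8 line change was 0.01 ± 0.27 (difference adjusted p = 2.48e-05, the smallest of all genes). The 3 Fadd knockout libraries were empty or nearly so, and the 6 Casp8 line libraries were all higher than the 3 Fadd restored ones.

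Scrn1, which encodes secernin 1 (ENSMUSG00000019124.10, chr6:54501173-54566489), stood at 0.0176, 0.0364 and 0 CPM in the Fadd knockout, 19.6, 25.2 and 15.4 in the Fadd restored, 31.7, 16.2 and 15.5 in the Casp8 knockout and 4.16, 8.82 and 8.91 in the Casp8 restored libraries. Its ratio of restored to knockout in the Fadd line was 1040 (95% counting interval 357 to 5060), while the Casp8 line changed the other way, by 1.54 ± 0.41 with no overlap between its 2 groups (difference adjusted p = 5.63e-05). Enpp5, an ectonucleotide pyrophosphatase family member, had 1 count in the Fadd knockout and 13.7, 8.58 and 5.32 CPM after FADD was restored, a ratio of 1460 (95% counting interval 261 to 57700), with 12.9 and 8.03 CPM on average in the Casp8 knockout and restored groups (adjusted p = 0.000417). These 3 genes kept their calls in every leave-one-out fit.

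Several genes had no count at all in the 3 Fadd knockout libraries, so their folds are lower bounds set against 3 counts over the group. Gas6, the ligand of the receptor kinases AXL, MERTK and TYRO3 (ENSMUSG00000031451.6, chr8:13465374-13494490), stood at 0, 0 and 0 CPM in the Fadd knockout, 13.04, 7.49 and 5.01 in the Fadd restored, 12.2, 34.04 and 30.6 in the Casp8 knockout and 69.0, 58.3 and 45.0 in the Casp8 restored libraries. Restored cells had at least 451-fold more Gas6 than Fadd knockout cells, whereas in the Casp8 line the knockout libraries were all lower than the restored ones, by -1.16 ± 0.44 on the log2 scale. The difference for Gas6 was called lower (adjusted p = 0.00303). Its receptors did not pass: the differences were 0.33 ± 0.41 for Axl, -0.50 ± 1.04 for Mertk and -0.33 ± 0.29 for Tyro3 (adjusted p = 1.0 for each), and these 3 were chosen after their values were seen.

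Erfe, which encodes the hormone erythroferrone that lowers hepcidin, stood at 0, 0 and 0 CPM in the Fadd knockout, 0.747, 2.94 and 1.45 in the Fadd restored, 18.3, 16.5 and 18.2 in the Casp8 knockout and 1.28, 4.25 and 6.09 in the Casp8 restored libraries. Fadd restored cells had at least 87.5-fold more Erfe than the knockout, while the Casp8 knockout libraries all exceeded the restored ones, by 2.19 ± 0.60 on the log2 scale (adjusted p = 0.00418 for the difference). Gpx7, a peroxidase of the endoplasmic reticulum, had 0.256, 1.69 and 0.803 CPM in Fadd restored cells, 6.66, 7.75 and 9.37 CPM in the Casp8 knockout and 0.428, 1.33 and 0.72 CPM in the Casp8 restored group, with a Fadd line change of at least 46.5-fold and a Casp8 line change of 3.26 ± 0.67 (adjusted p = 0.00418 for the difference). Cd302, a C-type lectin receptor, was at least 90.6-fold higher in Fadd restored than in knockout cells (adjusted p of the difference = 0.00266) and Lipo3, of the lipase family, at least 75-fold (adjusted p = 0.00349), with group means of 0, 1.73, 5.63 and 2.98 CPM and 0, 1.46, 7.08 and 3.82 CPM in the order Fadd knockout, Fadd restored, Casp8 knockout and Casp8 restored. Crip1, a small LIM domain protein, had 1 count in the Fadd knockout, a ratio of 236 (95% counting interval 41.8 to 9350) in the Fadd line and a Casp8 line change of 1.87 ± 0.62 (adjusted p = 0.00357, and 0.0705 by limma-voom).

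**Figure D3:**
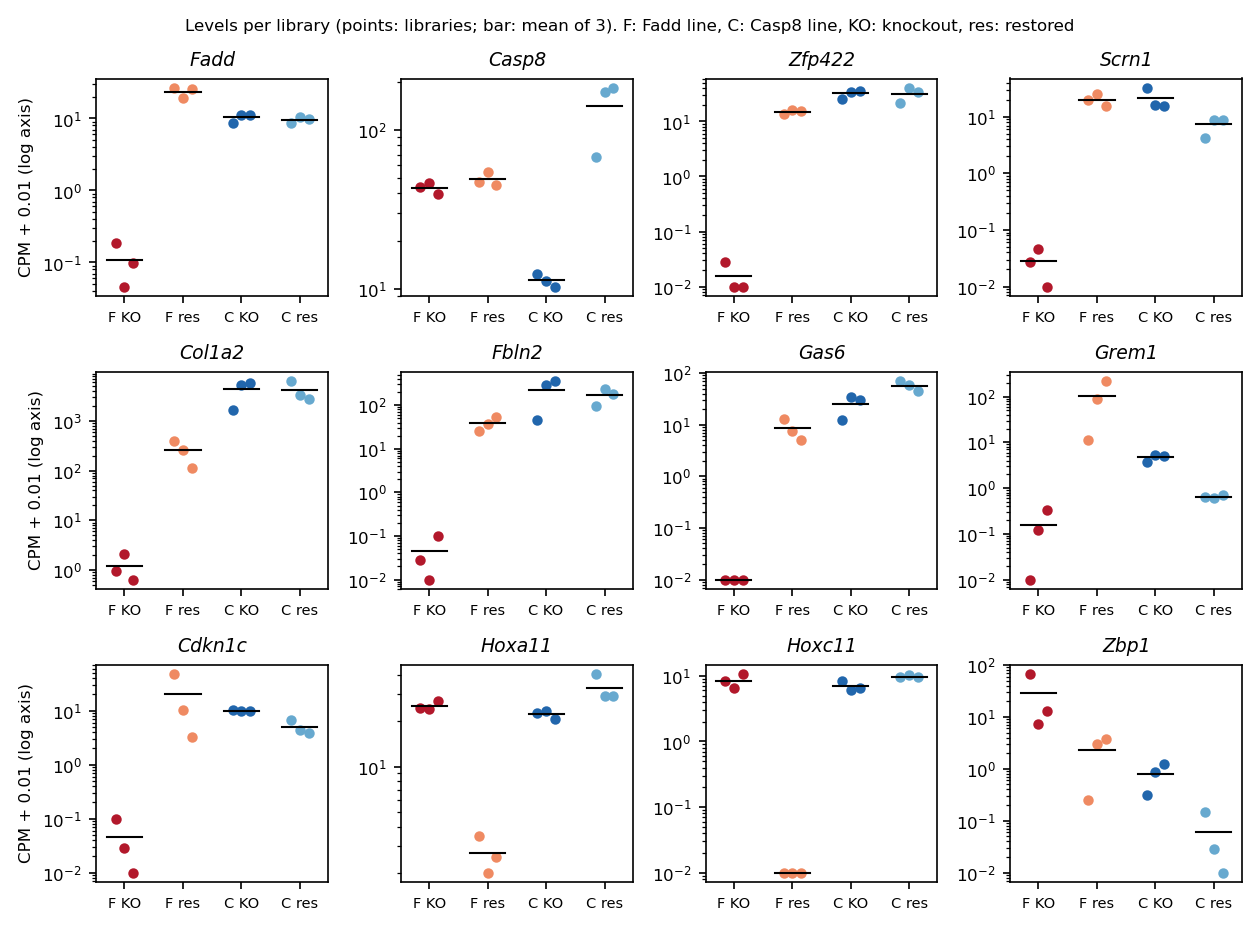
Points are libraries and bars are means of 3, as CPM + 0.01 on a log axis, for 12 of the genes described, by group (F, Fadd line; C, Casp8 line; KO, knockout; res, restored). Zfp422, Scrn1, Fbln2 and Gas6 are near the bottom only in the Fadd knockout, Hoxc11 and Hoxa11 are lowest in the Fadd restored group, and Zbp1 is higher in the knockout than in the restored group of each line.

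For 2 such genes, Zfp422 and Fbln2, the windows around the RefSeq start are given (RefSeq on GRCm38.p6, 250 bases before to 50 bases after the annotated start, 5′ to 3′ on the gene's strand). In both genes the RefSeq start lies inside the GENCODE gene, 298 bases (Zfp422) and 309 bases (Fbln2) from its 5′ end. The windows therefore lie wholly within the gene coordinates given here and not upstream of them. Capitals mark each CG dinucleotide, the site at which mammalian DNA is methylated.
Zfp422 (chr6:116628652-116628951, minus strand): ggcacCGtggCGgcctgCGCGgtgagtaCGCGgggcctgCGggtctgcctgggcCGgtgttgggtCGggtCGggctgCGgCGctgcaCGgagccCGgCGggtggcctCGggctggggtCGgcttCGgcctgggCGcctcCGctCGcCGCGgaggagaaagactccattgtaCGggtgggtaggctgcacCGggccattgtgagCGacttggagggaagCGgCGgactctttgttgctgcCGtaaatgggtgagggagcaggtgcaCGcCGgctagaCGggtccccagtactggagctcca
Fbln2 (chr6:91212514-91212813, plus strand): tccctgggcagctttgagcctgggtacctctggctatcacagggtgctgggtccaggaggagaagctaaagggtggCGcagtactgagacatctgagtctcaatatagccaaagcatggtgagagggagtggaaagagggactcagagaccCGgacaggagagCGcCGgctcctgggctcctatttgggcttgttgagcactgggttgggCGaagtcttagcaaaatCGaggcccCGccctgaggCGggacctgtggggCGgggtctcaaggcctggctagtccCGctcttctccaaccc
The Zfp422 window holds 32 CG dinucleotides and the Fbln2 window holds 10. RefSeq windows were matched by symbol for 10561 of the 16377 distinct symbols tested, and their median was 21 CG dinucleotides. The median was 16 in the 93 of 129 genes called lower that matched, and 18 in the 40 of 51 genes silent in the Fadd knockout alone. Windows with 10 or more CG dinucleotides made up 77.5% of those 40 and 83.3% of all that matched. These counts describe letters only, since DNA methylation was not measured.

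Matrix genes were the list with the most called members by number. Of 43 matrix genes other than collagens, 4 were called lower (9.3%, against 0.787% of all genes) and none higher, 37 of 43 lay below 0. The median difference was -1.12 against -0.0121 over all genes tested. Fbln2 (fibulin 2, ENSMUSG00000064080.12, chr6:91212455-91272540) stood at 0.0176, 0 and 0.0876 CPM in the Fadd knockout, 25.9, 38.0 and 54.6 in the Fadd restored, 46.4, 288 and 353 in the Casp8 knockout and 98.7, 231 and 178 in the Casp8 restored libraries. Its difference was -10.59 ± 1.23 (adjusted p = 0.00195), with a Fadd line change of -10.15 ± 1.06 and a Casp8 line change of 0.44 ± 0.62. Fadd knockout libraries lay far below all others, and replicate 1 was the lowest library of both Casp8 line groups. By limma-voom the adjusted p for Fbln2 was 0.133.

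Nid1, the basement membrane linker nidogen 1, stood at 0, 0.182 and 0.0438 CPM in the Fadd knockout, 9.29, 32.2 and 28.96 in the Fadd restored, 95.5, 223 and 271 in the Casp8 knockout and 30.1, 147 and 109 in the Casp8 restored libraries, a difference of -9.26 ± 1.21 (adjusted p = 0.00357, and 0.0913 by limma-voom). Fbln1 (fibulin 1) had 0.228, 0.783 and 0.438 CPM in the Fadd knockout and 13.8, 15.8 and 14.6 CPM in the Fadd restored libraries, and its difference was -6.35 ± 0.84 (adjusted p = 0.00384). For Nid1 and Fbln1 the 2 groups of the Fadd line did not overlap, while in the Casp8 line replicate 1 of the knockout overlapped the restored libraries for Nid1 and lay below all of them for Fbln1 (4.98 CPM against 7.04 to 8.10). Loxl2, the other called member and a lysyl oxidase that acts on collagen and elastin, had group means of 0.716, 148, 128 and 79.2 CPM and a difference of -8.38 ± 1.47 (adjusted p = 0.022). The call for Loxl2 was lost in 6 of 12 leave-one-out fits (adjusted p 0.0543 to 0.094), those without 1 of the 3 Fadd knockout libraries, replicates 2 or 3 of the Casp8 knockout, or replicate 3 of the Casp8 restored group, and limma-voom gave 0.153. The pseudogene Gm21451 lies near Loxl2 and was called lower in the same fits, and reads shared between them could be split by the counting.

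Of 22 collagen genes, 1 was called (4.55%, against 0.842% of all genes), 18 lay below 0 and the median difference was -0.846. Col1a2, the second chain of type I collagen (ENSMUSG00000029661.16, chr6:4504814-4541544), stood at 0.966, 2.06 and 0.635 CPM in the Fadd knockout, 394, 260.4 and 113 in the Fadd restored, 1688, 5367 and 5909 in the Casp8 knockout and 6283, 3378 and 2806 in the Casp8 restored libraries. The Fadd knockout held about 1 CPM of a transcript that both Casp8 line groups held at 1688 CPM or more, and Fadd restored cells were in between, with no overlap between any of these 3 levels. The difference for Col1a2 was -7.76 ± 0.92 (adjusted p = 0.00236), from -7.70 ± 0.78 in the Fadd line and 0.06 ± 0.57 in the Casp8 line. Col1a1, which encodes the partner chain, had group means of 511, 1149, 3414 and 3057 CPM and a difference of -1.33 ± 0.90 that did not pass (adjusted p = 0.961). Gm43921, also called lower, lies inside Col1a2 on the same strand, so its reads may be those of Col1a2. Its call was lost without replicate 1 or 3 of the Fadd knockout (adjusted p 0.0505 to 0.0526), with the replicate block (0.0937) and by limma-voom (0.255). Of 18 integrin genes none was called, and 4 were lower at an unadjusted p under 0.05, against 852 of all 16396 genes tested. Of the 18, 16 lay below 0 and the median difference was -0.553. Leaving out 1 library moved it from -0.78 without replicate 1 of the Fadd knockout to -0.31 without replicate 1 of the Casp8 restored group.

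The matrix and collagen lists differed between the replicates of the Casp8 line. The mean log2 change of the 43 matrix genes was -1.33, -1.16 and -1.34 in the 3 Fadd line pairs, and -1.33, 0.93 and 1.35 in the 3 Casp8 line pairs. For the 22 collagens the pairs gave -0.46, -0.38 and -0.54 for the Fadd line but -1.16, 0.90 and 1.54 for the Casp8 line. Replicate 1 of the Casp8 line thus went against its other 2 pairs in both lists, and the Fadd line pairs were alike. In the matrix list this reversal came mainly from the Casp8 knockout library, with a mean log2 CPM of 4.2 against 6.43 and 6.69. The 3 Casp8 restored libraries lay between 5.34 and 5.53. For the collagens the replicate 1 knockout library was low (5.41 against 6.93 and 7.26). The replicate 1 restored library was high there (6.57 against 6.03 and 5.72). Without both replicate 1 libraries of the Casp8 line the median difference was -1.76 for the 43 matrix genes and -1.06 for the collagens. With 1 library left out the matrix median ran from -1.52 without replicate 1 of the Casp8 knockout to -0.725 without replicate 2 of the Casp8 knockout. What sets those libraries apart was not tested.

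Growth factors, BMP and Wnt genes had a few called members each, all lower. Grem1 (gremlin 1, a secreted BMP antagonist, ENSMUSG00000074934.3, chr2:113746164-113758646) stood at 0, 0.109 and 0.328 CPM in the Fadd knockout, 11.2, 88.9 and 216 in the Fadd restored, 3.71, 5.38 and 5.15 in the Casp8 knockout and 0.642, 0.609 and 0.679 in the Casp8 restored libraries. Fadd restored cells were the highest group by far and varied from 11.2 to 216 CPM, and the 2 Casp8 line groups were apart from each other with the knockout higher. The difference for Grem1 was -12.43 ± 1.496 (adjusted p = 0.00255), with changes of -9.55 ± 1.21 in the Fadd line and 2.88 ± 0.91 in the Casp8 line. The call held in all 12 leave-one-out fits, and limma-voom gave an adjusted p of 0.122. Bmpr1b, a type I BMP receptor, had 0.0527, 0.0364 and 0.0219 CPM in the Fadd knockout and 1.94, 2.48 and 2.06 CPM after FADD was restored, with a difference of -5.48 ± 0.73 (adjusted p = 0.00404). Of 37 BMP and TGF-beta pathway genes these 2 were called (5.41%, against 0.842% of all genes). The median difference was -0.486.

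Wnt10b, a Wnt ligand that favours bone over fat formation in mesenchymal cells, stood at 1.88, 1.04 and 0.876 CPM in the Fadd knockout, 18.4, 15.7 and 19.8 in the Fadd restored, 50.9, 31.0 and 31.3 in the Casp8 knockout and 28.6, 36.1 and 38.0 in the Casp8 restored libraries. All 3 Fadd knockout libraries were lowest, the Casp8 line groups overlapped, and the difference was -3.96 ± 0.42 (adjusted p = 0.00139). Wnt10a, its close relative, showed another shape, with 0.386, 0.419 and 0.306 CPM in the Fadd knockout, 1.96, 2.29 and 1.45 in the Fadd restored, 3.90, 7.89 and 7.38 in the Casp8 knockout and 0.758, 0.0179 and 0.0412 in the Casp8 restored libraries. The Casp8 knockout was the highest group, and the difference of -6.89 ± 1.31 (adjusted p = 0.0354) was made up of -2.35 ± 0.89 in the Fadd line and 4.54 ± 0.97 in the Casp8 line. The Wnt10a call was lost in 9 of 12 leave-one-out fits (adjusted p 0.0608 to 0.129) and remained only without replicate 1 of the Casp8 knockout, or replicate 1 or 2 of the Casp8 restored group, and with the replicate block it was 0.069. Of 36 Wnt pathway genes these 2 were called (5.56%, against 0.842% of all genes), 24 lay below 0 and the median difference was -0.299 (-0.789 without both replicate 1 libraries of the Casp8 line). With 1 library left out it ran from -0.752 without replicate 1 of the Casp8 knockout to -0.134 without replicate 1 of the Fadd restored group.

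Of 46 growth factors and receptor kinases, 3 were called lower (6.52%, against 0.787% of all genes) and 36 lay below 0, with a median difference of -0.551 (-1.03 without both replicate 1 libraries of the Casp8 line). Leaving out 1 library moved it from -1.08 without replicate 1 of the Casp8 restored group to -0.514 without replicate 3 of the Fadd restored group. Besides Gas6, these were Igfbp4 and Pdgfd. Igfbp4, which binds insulin-like growth factors, stood at 0.527, 0.218 and 0.241 CPM in the Fadd knockout, 22.1, 12.8 and 15.2 in the Fadd restored, 0.622, 5.63 and 6.27 in the Casp8 knockout and 1.11, 0.287 and 0.535 in the Casp8 restored libraries. Its difference was -8.34 ± 1.14 (adjusted p = 0.00476), and Fadd restored cells overlapped no other group, while replicate 1 of the Casp8 knockout overlapped the Casp8 restored libraries. Pdgfd, a ligand of PDGF receptor beta, was much more abundant in the Casp8 line, with group means of 0.0566, 1.08, 35.0 and 55.7 CPM, and its difference was -3.50 ± 0.70 (adjusted p = 0.046). The Pdgfd call was lost in 11 of 12 leave-one-out fits (adjusted p 0.0661 to 0.161), remained only without replicate 1 of the Casp8 knockout, and was 0.552 by limma-voom.

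Imprinted genes, which are expressed from 1 parental allele, had 3 called members of 23 tested (13%, against 0.787% of all genes), all lower, and a median difference of -0.602 (-1.53 without both replicate 1 libraries of the Casp8 line). Leaving out 1 library moved it from -1.28 without replicate 3 of the Fadd restored group to -0.384 without replicate 3 of the Casp8 knockout. Cdkn1c, a maternally expressed cyclin-dependent kinase inhibitor (ENSMUSG00000037664.13, chr7:143458339-143461050), stood at 0.0878, 0.0182 and 0 CPM in the Fadd knockout, 47.1, 10.3 and 3.21 in the Fadd restored, 10.3, 9.82 and 9.95 in the Casp8 knockout and 6.77, 4.34 and 3.83 in the Casp8 restored libraries. Fadd restored libraries spread widely but all exceeded the Fadd knockout, and the difference was -9.99 ± 1.38 (adjusted p = 0.00515, and 0.0992 by limma-voom). Snrpn, a paternally expressed splicing factor gene, had no count in the Fadd knockout and 3.74, 2.92 and 1.78 CPM after FADD was restored, at least 148-fold more, and a Casp8 line change of 0.53 ± 0.87 (adjusted p = 0.0413 for the difference). The noncoding RNA Snhg14, which starts near Snrpn in the same imprinted cluster and was chosen after its values were seen, was called lower too, with a Fadd line ratio of 279 (95% counting interval 49.6 to 11100) (adjusted p = 0.0176), but not without any 1 of the Fadd knockout libraries or replicate 3 of the Casp8 restored group (adjusted p 0.0599 to 0.0827). Mest, another paternally expressed gene, had group means of 0.501, 13.1, 26.4 and 2.60 CPM and a difference of -8.04 ± 1.58 (adjusted p = 0.0431). Calls for Snrpn were lost in 10 of 12 leave-one-out fits (adjusted p 0.0676 to 0.108) and remained only without replicate 1 of either Casp8 line group, and limma-voom gave 0.0623 for Snrpn and 0.055 for Snhg14. Those for Mest were lost in 9 (adjusted p 0.0725 to 0.154) and remained only without replicate 2 of the Fadd knockout, replicate 3 of the Fadd restored group or replicate 1 of the Casp8 knockout, and limma-voom gave 0.304 and the replicate block 0.0758. Other imprinted genes with large fitted differences did not pass, among them Grb10 with group means of 0.181, 5.13, 681 and 859 CPM (adjusted p = 0.205), chosen after its values were seen.

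Adhesion genes went both ways: of 41 tested, Negr1 was called higher and Cadm1 and Cdh3 lower (7.32%, against 0.842% of all genes). The median difference was -0.448. Leaving out 1 library moved it from -0.655 without replicate 2 of the Fadd knockout to -0.219 without replicate 1 of the Fadd knockout. Cadm1, an immunoglobulin-family adhesion molecule (ENSMUSG00000032076.19, chr9:47530173-47857637), stood at 0.0351, 0.109 and 0.0438 CPM in the Fadd knockout, 52.1, 115 and 85.7 in the Fadd restored, 2.47, 0 and 0 in the Casp8 knockout and 0.0389, 0.0179 and 0 in the Casp8 restored libraries. It was expressed in the Fadd restored libraries and, at a low level, in replicate 1 of the Casp8 knockout, and was close to 0 elsewhere. The change in the Fadd line was -10.32 ± 1.60, and in the Casp8 line the ratio of knockout to restored was 45.9 (95% counting interval 15.3 to 226) with all 107 knockout counts in replicate 1. Without that library the adjusted p of the difference for Cadm1 was 1.0, against 0.00692 with it, and limma-voom gave 0.0671. Cdh3 (P-cadherin) had 1.12, 3.73 and 2.85 CPM in the Fadd knockout and 23.1, 24.7 and 19.6 CPM in the Fadd restored libraries, and a difference of -2.54 ± 0.49 (adjusted p = 0.0368). The call for Cdh3 remained without replicate 1 or 2 of the Fadd knockout or replicate 1 of either Casp8 line group and was lost in the other 8 leave-one-out fits (adjusted p 0.0502 to 0.136) and with the replicate block (0.0591). Negr1, a neuronal growth regulator of the immunoglobulin family, stood at 8.41, 6.73 and 3.48 CPM in the Fadd knockout, 0.0427, 0 and 0.109 in the Fadd restored, 1.18, 0.713 and 0.586 in the Casp8 knockout and 2.62, 0.323 and 0.556 in the Casp8 restored libraries, so the Fadd knockout was the highest group and the Fadd restored group the lowest. Its difference was 7.34 ± 1.28 (adjusted p = 0.0214), lost in 6 of 12 leave-one-out fits (adjusted p 0.0507 to 0.0846): those without replicate 1 or 2 of the Fadd knockout, replicate 1 or 2 of the Fadd restored group, or replicate 2 or 3 of the Casp8 knockout. By limma-voom it was 0.055.

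The 9 genes called higher were mostly low in Fadd restored cells rather than high in the Fadd knockout: the Fadd restored group was the farthest, on the low side, for 5 of them. Hoxc11, a homeobox transcription factor of posterior and limb identity (ENSMUSG00000001656.3, chr15:102954427-102957708), stood at 8.33, 6.59 and 10.6 CPM in the Fadd knockout, 0, 0 and 0 in the Fadd restored, 8.39, 6.14 and 6.44 in the Casp8 knockout and 9.62, 10.2 and 9.47 in the Casp8 restored libraries. No read was counted after FADD was restored, and the other 9 libraries lay within 6.14 to 10.6 CPM. The Fadd knockout had at least 375-fold more Hoxc11 than restored cells, while the Casp8 line change was -0.48 ± 0.25 (adjusted p = 4.83e-05 for the difference). Hoxa11, its paralogue (ENSMUSG00000038210.10, chr6:52242106-52245810), stood at 24.1, 24.0 and 26.9 CPM in the Fadd knockout, 3.50, 2.00 and 2.54 in the Fadd restored, 22.6, 23.1 and 20.7 in the Casp8 knockout and 40.3, 29.2 and 29.2 in the Casp8 restored libraries. The 3 Fadd restored libraries were again lowest with no overlap, and the difference was 3.79 ± 0.31 (adjusted p = 0.00021), with 3.22 ± 0.23 in the Fadd line and -0.57 ± 0.21 in the Casp8 line. The antisense transcript Hoxa11os, chosen after its values were seen, had a difference of 4.46 ± 0.39 (adjusted p = 0.000356). It overlaps Hoxa11, and the sources used here do not say whether counting used the strand, so their reads may not be separate.

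Of 30 Hox genes tested those 2 were called, both higher (6.67%, against 0.0549% of all genes), 15 lay above 0 and 15 below. The median difference was 0.000812. The spread was wide, with quartiles of -2.84 and 0.602. Hoxb9, chosen after its values were seen, had group means of 27.2, 33.3, 4.84 and 0.208 CPM, a Casp8 line change of 4.53 ± 1.66 and a difference of -4.83 ± 2.10 (adjusted p = 0.636). Of 54 other positional and mesenchymal transcription factors none was called (10 were higher and 8 lower at an unadjusted p under 0.05), with a median difference of 0.147. Over all 16396 genes tested, 361 were higher and 852 lower at that threshold.

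Rad21 and Dscc1, both called higher, act in sister chromatid cohesion. Rad21, a subunit of the cohesin ring, stood at 943, 992 and 846 CPM in the Fadd knockout, 434, 404 and 376 in the Fadd restored, 415, 457 and 443 in the Casp8 knockout and 341, 401 and 413 in the Casp8 restored libraries. The Fadd knockout libraries were highest with no overlap, the other 9 libraries lay close together, and the difference was 1.01 ± 0.19 (adjusted p = 0.038). Dscc1, part of a clamp loader needed for cohesion, stood at 73.5, 62.4 and 55.8 CPM in the Fadd knockout, 29.6, 28.4 and 27.2 in the Fadd restored, 19.7, 19.5 and 19.5 in the Casp8 knockout and 18.96, 23.4 and 26.01 in the Casp8 restored libraries, and its difference was 1.39 ± 0.22 (adjusted p = 0.0108). The call for Rad21 was lost in 10 of 12 leave-one-out fits (adjusted p 0.0565 to 0.144), remaining only without replicate 1 of either Casp8 line group, and that for Dscc1 in 2, those without replicate 2 or 3 of the Fadd restored group (adjusted p 0.0542 to 0.0687). Nlrx1, a mitochondrial NOD-like receptor, had 0.427, 0.241 and 0.239 CPM in Fadd restored cells and 3.14, 3.24 and 2.06 CPM in the Fadd knockout, and both Casp8 line groups lay above these with means of 5.90 and 4.68 CPM. Its difference was 2.87 ± 0.49 (adjusted p = 0.0176), lost in 6 of 12 leave-one-out fits (adjusted p 0.0516 to 0.0727), those without replicate 2 of the Fadd knockout, replicate 2 or 3 of the Fadd restored group, replicate 3 of the Casp8 knockout, or replicate 2 or 3 of the Casp8 restored group. Kctd14, the last of the 9 and chosen after its values were seen, was the 1 gene of them expressed in the Fadd knockout alone, with group means of 3.48, 0.0608, 0.060 and 0.0691 CPM.

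Nucleic acid sensing genes had 2 called members of 20 (10%, against 0.787% of all genes), both lower, with a median difference of 0.0957. Unc93b1, the chaperone that carries endosomal Toll-like receptors, stood at 0.58, 0.109 and 0.153 CPM in the Fadd knockout, 1.88, 2.99 and 1.78 in the Fadd restored, 4.93, 1.68 and 2.69 in the Casp8 knockout and 0.194, 0.0717 and 0.412 in the Casp8 restored libraries. Restored cells were higher than knockout cells in the Fadd line and lower in the Casp8 line, with no overlap in either, and the difference was -6.73 ± 1.06 (adjusted p = 0.0106). Zcchc3, a zinc finger protein that helps cGAS and RIG-I bind nucleic acids, had 1 count in the Fadd knockout, a ratio of 84.4 (95% counting interval 14.7 to 3380) in the Fadd line and a Casp8 line change of 0.62 ± 0.50 (adjusted p = 0.00867). Perp, a membrane protein of desmosomes and a p53 target, stood at 0.755, 1.15 and 0.876 CPM in the Fadd knockout, 10.97, 18.1 and 25.4 in the Fadd restored, 12.95, 14.8 and 6.32 in the Casp8 knockout and 7.58, 14.3 and 16.6 in the Casp8 restored libraries. Perp was the 1 called gene of 22 p53 targets (4.55%, against 0.842% of all genes), with a difference of -4.12 ± 0.60 (adjusted p = 0.00692). Zfp941, another zinc finger gene, was expressed in Fadd restored cells alone, at 7.32, 6.96 and 7.49 CPM, with the other 9 libraries at or under 0.586 CPM, and its difference was -4.90 ± 0.48 (adjusted p = 0.000726). Of 376 tested genes whose symbols start with Zfp, Zscan or Zkscan, 7 were called (1.86%, against 0.842% of all genes).

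In the 62 genes that moved in opposite directions, the median change was -4.81 in the Fadd line and 2.09 in the Casp8 line. All 3 Fadd line pairs were below 0 in 62 of 62, and all 3 Casp8 line pairs were above 0 in 54. These genes were picked by their changes in the same libraries. The pair signs, and the calls within each line given next, therefore describe the selection and add no support. In the Fadd line 44 of the 62 were called, where 1.24% of all genes were called lower. None was called in the Casp8 line with all libraries. Without its replicate 1 libraries 6 were called there, where 111 of 16864 genes tested were called. Besides Grem1, Scrn1, Erfe and Unc93b1, Slc16a3 shows the shape at a high level. This lactate exporter, chosen after its values were seen, stood at 1.07, 0.564 and 0.175 CPM in the Fadd knockout, 23.7, 22.9 and 10.98 in the Fadd restored, 37.4, 15.5 and 18.4 in the Casp8 knockout and 2.703, 0.269 and 2.39 in the Casp8 restored libraries, with changes of -4.97 ± 0.87 and 3.74 ± 0.81 in the Fadd and Casp8 lines (difference adjusted p = 0.00462). The Fadd restored and Casp8 knockout libraries were all above the other 2 groups. For the other 62 lower genes, which changed in the Fadd line alone, the median changes were -5.92 and 0.332, and the Casp8 line change lay between -0.67 and 0.94. Across the 10709 genes with a mean of at least 5 CPM, the changes in the 2 lines correlated with a Pearson r of 0.104 and a Spearman rho of 0.108, given as a description over genes, which are not independent.

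Type I interferon response genes had similar median changes in both lines, and the difference called none of them. Of 54 tested, 0 were called in the difference, 27 lay below 0 and 27 above. The median difference was -0.00286. The median changes were 2.17 in the Fadd line and 2.34 in the Casp8 line, and 52 of 54 genes (96.3%) lay above 0 in both lines, against 27.1% of all genes tested. Within the lines, 1 of the 54 was called in the Fadd line and 0 in the Casp8 line, against 250 and 1 of all 16396 genes. By DESeq2 these calls were 17 and 14, against 697 and 143 of all genes. At an unadjusted p under 0.05, Ifit2 was higher and Ifi27 lower, against 361 higher and 852 lower of all 16396 genes tested. By DESeq2 and limma-voom 0 of the 54 were called in the difference, against 420 and 111 of all 16396 genes. These limits are wide: the median half-width of the 95% interval of a member's difference was 2.51, and for none of the 54 did the interval lie within 1 log2 unit of 0. The 37 antigen presentation and interferon gamma response genes had 0 called and a median difference of -0.192 (-0.629 without replicate 1 of the Fadd knockout to 0.14 without replicate 2 of the Fadd knockout), with medians of 1.96 and 1.82 in the 2 lines (at an unadjusted p under 0.05 there was none).

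The pairs of each line were far from alike in this list. The mean log2 CPM of the 54 genes was 7.14, 5.32 and 5.37 in the Fadd knockout, 2.40, 4.26 and 4.40 in the Fadd restored, 1.41, 3.59 and 3.41 in the Casp8 knockout and 1.43, 0.53 and 0.76 in the Casp8 restored libraries. The mean change was thus 4.74, 1.06 and 0.97 in the 3 Fadd line pairs and -0.02, 3.06 and 2.65 in the 3 Casp8 line pairs. Replicate 1 carried the largest change in the Fadd line and none in the Casp8 line. Without both replicate 1 libraries of the Fadd line the median difference was -1.22, and without both of the Casp8 line it was -0.797. In these 2 fits 0 and 1 members were called, against 105 of 16589 and 391 of 16864 genes tested. Leaving out 1 library at a time moved it between -0.844 (without replicate 1 of the Fadd knockout) and 0.374 (without replicate 3 of the Fadd restored group).

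Zbp1, the interferon-induced sensor in the study's title (ENSMUSG00000027514.14, chr2:173206612-173218923), stood at 66.1, 7.28 and 13 CPM in the Fadd knockout, 0.235, 2.99 and 3.78 in the Fadd restored, 0.30, 0.874 and 1.20 in the Casp8 knockout and 0.136, 0.0179 and 0 in the Casp8 restored libraries. Knockout libraries all exceeded restored libraries in each line, and the Fadd knockout held the most, with 8 counts in the 3 Casp8 restored libraries together. The changes were 3.62 ± 1.10 in the Fadd line and 3.87 ± 1.37 in the Casp8 line (adjusted p = 0.189 and 0.701), and the difference was -0.24 ± 1.40 (adjusted p = 1.0), with a 95% interval of -3.32 to 2.84. Ripk1 differed by -0.02 ± 0.20 (95% interval -0.47 to 0.43, adjusted p = 1.0), so an unequal change of more than about 0.47 log2 units lay outside its interval. Ripk3 stood at 44.3, 62.8 and 60.9 CPM in the Fadd knockout, 42.9, 55.9 and 52.5 in the Fadd restored, 65.2, 56.5 and 50.6 in the Casp8 knockout and 10.7, 35.7 and 31.5 in the Casp8 restored libraries. Replicate 1 of the Casp8 restored group was the lowest of the 12 libraries, and the difference of -0.99 ± 0.50 for Ripk3 did not pass (adjusted p = 0.772, 95% interval -2.09 to 0.10). Mlkl, deficient in all 4 groups with no Mlkl-positive group to compare, kept reads over the gene with group means of 8.504, 10.6, 7.49 and 6.37 CPM and differed by -0.55 ± 0.57 (adjusted p = 1.0). Of 35 cell death genes, Casp8 was called higher and Fadd lower (5.71%, against 0.842% of all genes). Both are the targeted genes, so the design sets these 2 calls. The median difference of the 35 genes was -0.0617.

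Since nearly all interferon genes lay above 0 in both lines, the promoter windows of the 2 most abundant list members with the interferon-stimulated response element letters, Ifitm3 and Eif2ak2, and of Isg15 are given (RefSeq on GRCm38.p6, the same window as above). Capitals mark matches to GAAA, any 2 bases and GAAA, searched on both strands.
Ifitm3 (chr7:141010695-141010994, minus strand): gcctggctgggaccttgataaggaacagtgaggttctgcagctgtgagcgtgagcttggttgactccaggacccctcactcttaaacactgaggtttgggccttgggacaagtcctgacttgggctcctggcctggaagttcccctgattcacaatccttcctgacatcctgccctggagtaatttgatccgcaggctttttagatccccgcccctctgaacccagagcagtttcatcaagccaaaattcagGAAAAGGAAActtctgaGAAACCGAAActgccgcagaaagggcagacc
Eif2ak2 (chr17:78882523-78882822, minus strand): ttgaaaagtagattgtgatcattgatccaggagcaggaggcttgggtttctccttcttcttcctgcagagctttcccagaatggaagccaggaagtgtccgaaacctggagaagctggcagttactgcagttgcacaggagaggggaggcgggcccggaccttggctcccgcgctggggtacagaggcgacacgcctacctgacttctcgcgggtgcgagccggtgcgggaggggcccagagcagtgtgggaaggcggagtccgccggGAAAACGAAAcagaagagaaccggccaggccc
Isg15 (chr4:156200769-156201068, minus strand): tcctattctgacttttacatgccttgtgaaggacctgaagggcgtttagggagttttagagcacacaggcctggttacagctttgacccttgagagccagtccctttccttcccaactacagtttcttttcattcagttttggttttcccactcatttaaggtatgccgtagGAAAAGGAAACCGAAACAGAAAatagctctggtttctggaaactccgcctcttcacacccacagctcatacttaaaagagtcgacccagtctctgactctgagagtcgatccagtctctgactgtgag
Isg15 holds 3 overlapping matches, 78, 72 and 66 bases before the annotated start, while those of Ifitm3 (2) and Eif2ak2 (1) begin just after it. The letters were found in 19 of the 41 matched windows of the list (46.3%), in 3.0% of all matched windows and in 4.3% of the matched windows of genes called lower. Ifitm3, which blocks viral entry, had group means of 308, 97.6, 86.4 and 46.7 CPM and a difference of 0.77 ± 0.82. Eif2ak2 encodes PKR, a kinase activated by double-stranded RNA, and had group means of 246, 121, 91.1 and 63.4 CPM and a difference of 0.50 ± 0.47. Isg15, a ubiquitin-like modifier, had group means of 133, 29.9, 15.2 and 2.46 CPM and a difference of -0.48 ± 1.05 (adjusted p = 1.0 for each of the 3). A match is a description of letters and says nothing of binding.

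**Figure D4:**
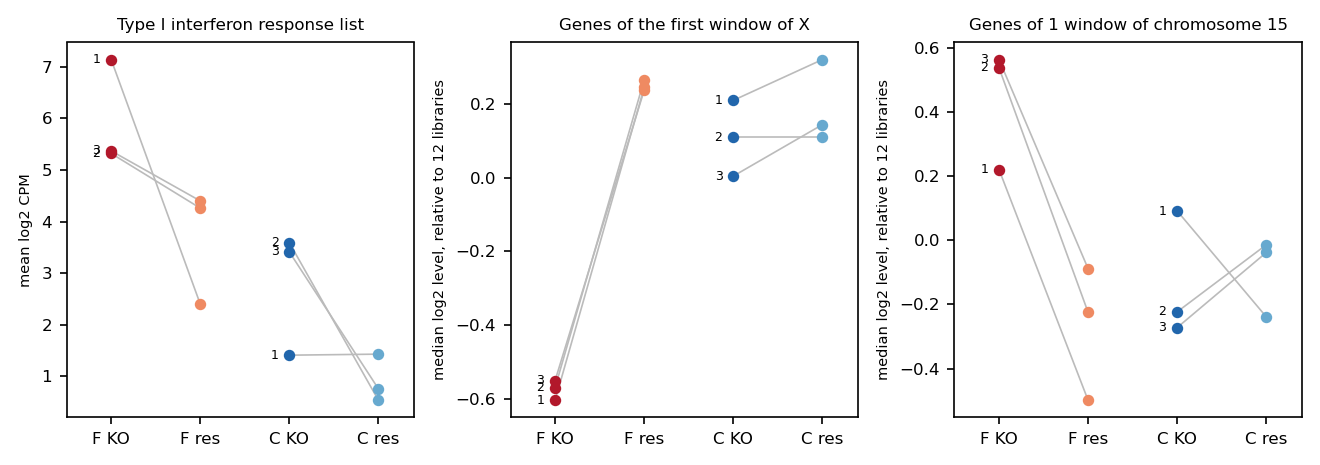
The left panel shows the mean log2 CPM of the 54 interferon response genes in each library, with lines joining knockout and restored libraries of the same number. The middle and right panels show, relative to the mean of the 12 libraries, the median log2 level of genes in the first 10 Mb of X and in 1 window of chromosome 15. The interferon genes are lower in the restored library of every Fadd line pair and of 2 of 3 Casp8 line pairs, the Fadd knockout stands alone on X at about -0.6, and it is highest in the window of chromosome 15.

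Called genes lay on 21 chromosomes and scaffolds. Among the chromosomes with a called gene, the share called ran from 0.28% on chromosome 13 to 2.12% on X (11 of 518 genes). Over all genes tested it was 0.842%. Of the 138, 25 (18.1%) lay within 200 kb of another called gene, against 775 of the 16254 genes with a position that were not called (4.8%), and 2 of the 14 pairs overlap and may share reads. Windows and neighbours were examined after the data were seen, and the shares were not tested. Such neighbours were Crip2 and Crip1 (chr12:113140236-113153879, 0.8 kb apart), Cd302 and Pla2r1 (chr2:60251993-60553308), and Mgmt and Ebf3 (chr7:136894614-137314445), all lower. Crip2 had group means of 0.403, 2.31, 5.85 and 4.03 CPM and Ebf3, a transcription factor gene, 0.0119, 2.22, 4.30 and 1.60 CPM, both lowest in the Fadd knockout. Mgmt, which repairs alkylated guanine in DNA, was at 0 in the Fadd knockout and had 0.598, 0.337 and 0.847 CPM after FADD was restored, at least 31.6-fold more. The call for Mgmt was lost without replicate 2 of either Casp8 line group (adjusted p 0.0505 to 0.0524) and with the replicate block (0.108). All 3 tested genes of the scaffold GL456233.1 were called lower. They are Vamp7, a vesicle fusion protein with group means of 18.3, 48.8, 46.1 and 46.8 CPM, Spry3, a Sprouty-family member, and Tmlhe, which starts carnitine synthesis, with 0.571, 12.98, 8.46 and 9.48 CPM. The call for Spry3 remained in 1 of 12 leave-one-out fits, that without replicate 1 of the Casp8 knockout (adjusted p 0.0615 to 0.145 in the others), and was lost with the replicate block (0.0771) and by limma-voom (0.116). Vamp7 lost its call in 7 of 12 leave-one-out fits (adjusted p 0.0558 to 0.11) and kept it without replicate 1 or 2 of the Fadd knockout, replicate 3 of the Fadd restored group or replicate 1 of either Casp8 line group.

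Of 225 windows of 10 Mb holding at least 15 genes with a mean of at least 5 CPM, 222 had a median difference between -0.4 and 0.4. The first 10 Mb of X had a median of -0.835 over 24 genes, 23 of them below 0, and the next 10 Mb one of -0.834 over 15 genes, 13 below 0. In the first window the Fadd knockout libraries had median levels of -0.605, -0.570 and -0.551 relative to the mean of all 12 libraries, and the other 9 lay between 0.005 and 0.322. Thus all 3 Fadd knockout libraries were low there and no other was. The called gene Tfe3, a transcription factor of lysosome genes (chrX:7762560-7775202), lies in that window, with group means of 24.2, 42.7, 50.02 and 40.8 CPM and a difference of -1.11 ± 0.22 (adjusted p = 0.0393). Its call remained only without replicate 1 of either Casp8 line group (adjusted p 0.0644 to 0.153 in the other 10 leave-one-out fits). The 30 to 40 Mb window of chromosome 15 had a median difference of 0.583, and the Fadd knockout libraries stood at 0.220, 0.537 and 0.563 there while the other 9 lay at or under 0.091. In the 50 to 60 Mb window of the same chromosome, which holds Rad21 (chr15:51962240-51991747) and Dscc1 (chr15:55076099-55090491), it was 0.256.

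The remaining lists had few or no called members. Of 28 glutathione and oxidative stress genes Gpx7 was called (3.57%, against 0.842% of all genes). The median difference of the list was -0.320. Leaving out 1 library moved it from -0.476 without replicate 1 of the Casp8 restored group to -0.15 without replicate 1 of the Casp8 knockout. No member was called among 22 NF-kappaB and inflammation genes (median -0.0812), 24 genes of the integrated and endoplasmic reticulum stress responses (-0.276), 33 cell cycle genes (-0.0759) and 28 genes of retroelement silencing (0.0896). At an unadjusted p under 0.05 these 4 lists had 2 members each, all lower, against 852 lower of all 16396 genes tested. The NF-kappaB median ran from -0.734 without replicate 1 of the Casp8 restored group to -0.00684 without replicate 3 of the Fadd restored group. Its mean change was 1.21, 0.28 and 0.23 in the Fadd line pairs and 0.21, 1.29 and 1.30 in the Casp8 line pairs. Replicate 1 thus stood apart in both lines. The p53 list had a median of -0.312. It moved from -0.524 without replicate 3 of the Fadd knockout to 0.0164 without replicate 3 of the Fadd restored group.

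**Figure D5:**
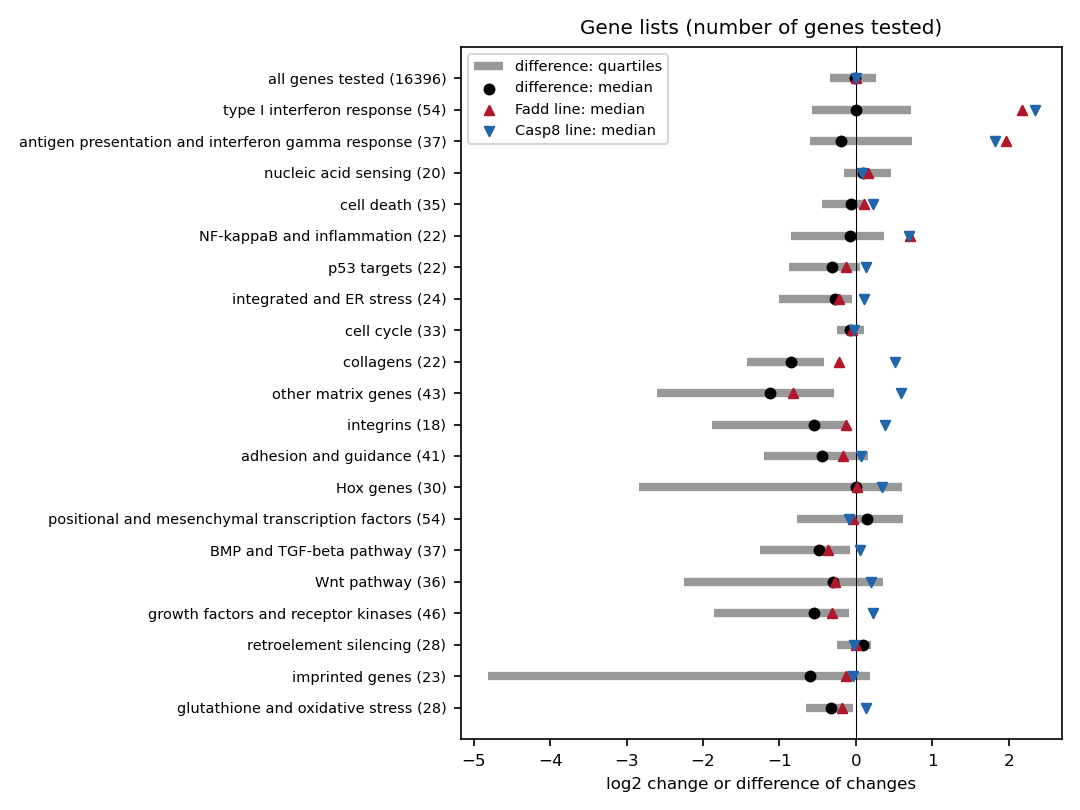
For each list, the black point is the median log2 difference between the lines with its quartiles as a grey bar, and triangles are the median changes in the Fadd line (red) and the Casp8 line (blue). Both interferon lists have medians of about 2 in each line and a median difference near 0, while the matrix, collagen, integrin, growth factor and imprinted lists lie below 0.

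Cell type markers were read beside these lists. Fibroblast markers summed to between 1863 and 14600 CPM, lowest in the Fadd knockout (1863 to 2840 CPM) and highest in the Casp8 line (6059 to 14600 CPM). Vim, the intermediate filament of mesenchymal cells, had group means of 1268, 1594, 2154 and 2441 CPM. Of 8 tested fibroblast markers, Col1a2 was called lower (12.5%, against 0.787% of all genes). The median difference was -0.606 (-0.983 without replicate 1 of the Fadd knockout to -0.245 without replicate 1 of the Fadd restored group). Thy1 and Lum were under the count filter. Epithelial markers summed to 0.941 to 34.2 CPM, with 3 of 7 tested, 0 called and a median difference of -3.42. At an unadjusted p under 0.05, 2 of the 3 were lower, against 852 of all 16396 genes tested. Leukocyte markers summed to 1.36 to 3.90 CPM, with 3 of 8 tested, 0 called and a median of -1.04, and Ptprc, which marks all leukocytes, was under the count filter. Neural markers summed to 152.6 to 739.8 CPM (5 of 7 tested, median 0.173), muscle markers to 0.651 to 2.35 CPM (2 of 6 tested, median -0.19) and endothelial markers to 0.0182 to 1.20 CPM (1 of 5 tested, -1.83), with 0 called and 0 at an unadjusted p under 0.05 in these 3. The part of the lower fibroblast marker sum in the matrix results was not tested.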

How the data were processed

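RNA from 12 cultures was sequenced with a stranded total RNA kit. Per the labels' protocols, Cutadapt in Trim Galore removed adapters, and reads were aligned with STAR to mm10 with GENCODE M22 and counted with RSEM. Versions 0.5.0 (Trim Galore) and 2.7.5a (STAR) are per the submitters' processing notes, which also name Picard, HOMER, SAMtools and DESeq2. The deposited gene tables hold the authors' RSEM expected counts, not normalized. Of 55665 rows, 92 spike-in rows (0 counts) were left out. A deposited table on endogenous retroviruses was not used here.

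Expected counts were rounded, filtered with filterByExpr (minimum count 10), scaled by TMM and fitted with 1 mean per group in edgeR 4.0.16 (R 4.3.3), and the difference was tested by the quasi-likelihood F test. The common biological coefficient of variation was 0.37. Benjamini-Hochberg adjusted p-values over 16396 genes were called under 0.05. Standard errors and 95% intervals were derived from each fitted change and its F statistic. Where a group had 0 counts, a fold is a bound that sets the whole group at 3 counts. Where it had 1 to 3, the ratio has an exact 95% interval. Both cover counting error only. Positions are from GENCODE M21 on the same build, matched for 16392 tested genes. The steps were tested on simulated data.

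Members and lists were chosen with earlier results of these data known. Named genes were the necroptosis genes Fadd, Casp8, Mlkl, Zbp1, Ripk1 and Ripk3. To these were added the 12 highest and 12 lowest protein-coding called genes that reached 5 CPM in a group and 1 CPM in each line, the 4 highest and 4 lowest of those under 1 CPM in both groups of 1 line, and up to 3 called members per list. Same-numbered libraries deviated together over genes within a line (correlations 0.660, 0.391 and 0.639 for Fadd, 0.203, 0.305 and 0.127 for Casp8). The numbers were therefore read as pairs, although the Casp8 line correlations were low and the labels do not say what the numbers mark. In the interferon list, replicate 1 lay below the other Casp8 knockout libraries but above the other Casp8 restored ones. Alternatives were DESeq2 1.42.0, limma-voom (limma 3.58.1), RLE size factors, no filter, genes at 1 CPM in both lines, a replicate block, and fits without 1 or 2 libraries.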

Additional observations from a re-analysis of the deposited data

Results flagged for a closer look

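The difference between the lines was itself tested, so every called result is one in which the changes of the 2 lines differ. There were 138 such genes. Only genes chosen by the naming rule are listed here. Among them, adjusted p-values (edgeR) were below 0.001 for Zfp422 2.48e-05, Fadd 4.83e-05, Hoxc11 4.83e-05, Scrn1 5.63e-05, Hoxa11 0.00021, Enpp5 0.000417 and Zfp941 0.000726. Those of matrix and adhesion genes were Fbln2 0.00195, Nid1 0.00357, Fbln1 0.00384, Col1a2 0.00236, Cadm1 0.00692, Cdh3 0.0368 and Negr1 0.0214. Those of signalling genes were Gas6 0.00303, Grem1 0.00255, Bmpr1b 0.00404, Wnt10a 0.0354, Wnt10b 0.00139, Igfbp4 0.00476 and Pdgfd 0.046. Those of imprinted genes were Cdkn1c 0.00515, Snrpn 0.0413 and Mest 0.0431. Those of the other named genes were Gpx7 0.00418, Erfe 0.00418, Cd302 0.00266, Lipo3 0.00349, Crip1 0.00357, Unc93b1 0.0106, Zcchc3 0.00867, Perp 0.00692, Rad21 0.038, Dscc1 0.0108, Nlrx1 0.0176 and Casp8 0.00283.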

How the results depend on the processing

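Of the 138 genes, 79 kept their call in all 12 leave-one-out fits, 138 by DESeq2, 102 by limma-voom, 121 with a replicate block inside each line, and 70 in all of these. The count of genes called in the difference was 420 by DESeq2 (45 higher, 375 lower), 239 with that replicate block, 391 without both replicate 1 libraries of the Casp8 line, and 90 to 241 when 1 library was left out. It was within 1.5 times the reported count by limma-voom (111), with RLE size factors (144), with no filter on low counts (174), among genes at 1 CPM in both lines (98), with a block over all 12 libraries (144) and without both replicate 1 libraries of the Fadd line (105). The Fadd line count of 250 was 697 by DESeq2, 444 with the block, 524 without both replicate 1 libraries of the Casp8 line, 111 without both of the Fadd line, and 103 to 390 with 1 library left out. The Casp8 line count of 1 was 143 by DESeq2 (132 higher, 11 lower), 4 with no filter, 3 among genes at 1 CPM in both lines, 6 with the block, 111 without its own replicate 1 libraries (99 higher, 12 lower), 4 without those of the Fadd line, 0 from its 6 libraries alone and 0 to 22 with 1 library left out. The cause of these moves was not tested. The uncalled difference of Zbp1 lay between -2.30 and 0.384 with 1 library left out, and was -2.79 without both replicate 1 libraries of the Casp8 line and -2.28 without those of the Fadd line. That of Ripk1 lay between -0.0904 and 0.131, and it was 0.0748 and -0.157 in the same order. The called genes chosen by the naming rule kept their direction under every alternative run.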
